A study of Mus musculus with 49 samples.

Results

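The inbred mouse strains, C57BL/6 and 129S1/SvImJ, were compared in how the transcripts of their epididymal white fat responded to rosiglitazone. The quantity described here is the strain by drug interaction, that is, the change with rosiglitazone in 129S1/SvImJ minus the change with rosiglitazone in C57BL/6, and it was computed from 16 RNA-seq libraries of the 49 samples in the series. These 16 are all the libraries of the rosiglitazone experiment, 4 for each strain and diet. The libraries belong to a wider series on strain, diet and fat depot, whose title asks how genetic variation bears on the function of PPARG and on the response to an antidiabetic drug.

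The C57BL/6 control group and the 129S1/SvImJ control group ate a purified low fat diet (D12450B) from 6 to 18 weeks of age. The C57BL/6 rosiglitazone group and the 129S1/SvImJ rosiglitazone group ate that diet for 10 weeks and then, for the final 2 weeks until 18 weeks of age, the same diet carrying 36 mg rosiglitazone per kg of diet. Each group has 4 libraries (n = 4 throughout). The labels give no genetic modification and do not say whether each library came from 1 animal or from a pool, so the p-values measure the spread between libraries. Epididymal fat is a visceral white depot of male mice. RNA of the whole tissue was measured, so fewer cells of a type and less RNA per cell cannot be told apart.

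Rosiglitazone is a thiazolidinedione that binds and activates PPARG, the nuclear receptor that drives adipocyte differentiation and, paired with RXR, switches on genes of fatty acid uptake, storage and oxidation. White adipocytes also make fatty acids from glucose and esterify them to triglyceride, and both this lipogenic programme and the making of cholesterol are driven by the SREBP transcription factors. In some fat depots and strains PPARG agonists also raise genes of thermogenic fat, among them Ucp1, the proton carrier that lets mitochondria release energy as heat.

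The deposited values are normalized whole-number scores with a floor of 1, and every difference below is on the log2(value + 1) scale. The summed values of the 16 libraries lie between 5537632 and 5542536 and are not sequencing depths, which are unknown. Correlations between libraries of a group were 0.970 to 0.989. The adipocyte genes Adipoq and Fabp4 were at 12430 or more in every library, while the summed values of 20 epididymis markers reached 61 and those of 10 male germ line markers 18 at most. Scd1, the fatty acid desaturase, stood at the shared maximum of 231290 in all 16 libraries, so no difference in it could be seen. A gene was called when limma's moderated test, adjusted by the Benjamini-Hochberg procedure over 22869 genes, gave an adjusted p under 0.05.

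The interaction was called for 48 of 22869 genes (0.21%). In 31 of them (0.136% of all genes) the change with rosiglitazone was more negative in 129S1/SvImJ, and in 17 (0.0743%) it was more positive. The drug response itself was called for 558 genes in C57BL/6 (2.44%), of which 351 rose and 207 fell, and for 1260 genes in 129S1/SvImJ (5.51%), of which 674 rose and 586 fell. Fitted on its own 8 libraries, C57BL/6 gave 73 calls and 129S1/SvImJ 960. In the 16-library fit without 1 library the counts were 275 to 741 and 789 to 1413, lowest without C57BL/6 rosiglitazone replicate 4 and 129S1/SvImJ control replicate 4. The strains share no library, and 275 genes moved in the same direction in both, which is 49.3% of the C57BL/6 calls and 21.8% of the 129S1/SvImJ calls. Across 13268 genes with a mean of at least 10 in some group, the Pearson correlation of the 2 responses was 0.37, a value over genes, which are not independent replicates. Of the 1538 genes called in either strain, 47 were also called for the interaction.

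The more negative genes fell into a few patterns. For 17 of the 31, among them Sorl1, Tuba1a, Mid1ip1 and Ptges, the gene fell in 129S1/SvImJ and was not called in C57BL/6. Another 7 rose in C57BL/6 and were not called in 129S1/SvImJ, namely Nsdhl, Lss, Golga7b, Gpd1, Mrap, Tecr and Tmem206. In 5 genes the responses were called in opposite directions, up in C57BL/6 and down in 129S1/SvImJ, among them Tlcd2, Tuba1b, Tubb4b and Atp10a. Orm3 fell in both strains, and Sc5d was called in neither alone. Among the 17 more positive genes, 11 rose in 129S1/SvImJ with no call in C57BL/6 (Ucp1 and Niacr1 are the largest), 3 rose in both (Ephx2, BC090627 and Mgll) and 3 fell in C57BL/6 with no call in 129S1/SvImJ (Slc6a8, Fzd5 and Fbxo32).

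**Figure D1:**
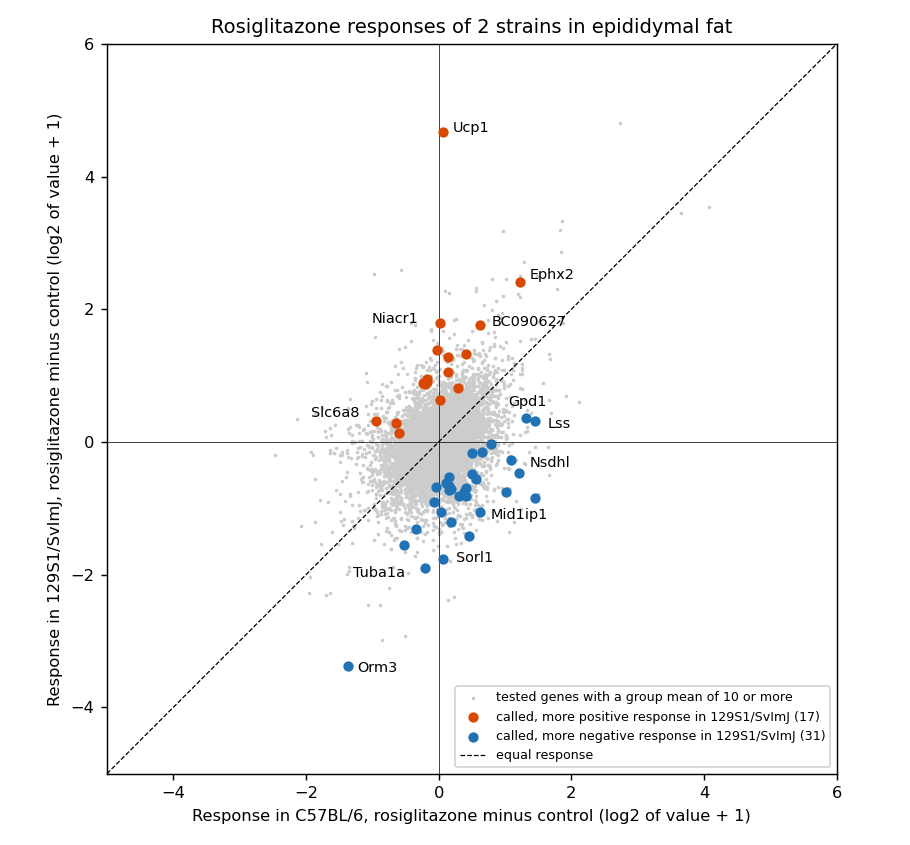
Response to rosiglitazone in C57BL/6 (x axis) against 129S1/SvImJ (y axis), as log2 differences of value + 1; each point is a gene and the dashed line marks equal responses. The 31 blue genes lie below the line and the 17 orange genes above it, with Ucp1 at 0.07 in C57BL/6 and 4.68 in 129S1/SvImJ.

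The strains also differed in where the controls stood. Of the 31 genes with the more negative response in 129S1/SvImJ, 29 had the higher control mean in 129S1/SvImJ, and of the 17 with the more positive response 14 had the lower control mean there. Control libraries enter the interaction with the opposite sign, so such a relation is partly built in: over the 13268 genes with a mean of at least 10, 69.6% had a control difference and an interaction of opposite signs. For 31 of the 48 genes the group means of the 2 strains lay closer together with rosiglitazone than without it, which is 64.6% of them, beside 58.1% of the 13268 genes.

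How many genes were called depended on single libraries. Without C57BL/6 rosiglitazone replicate 3, 16 genes were called, and without C57BL/6 rosiglitazone replicate 1, 113 were. The other fits that moved the count by more than 1.5 times gave 21 and 27 without C57BL/6 control replicates 1 and 2, 76 without C57BL/6 control replicate 4, 25 without C57BL/6 rosiglitazone replicate 4, 21, 30, 27 and 24 without 129S1/SvImJ control replicates 1 to 4, and 23, 25 and 74 without 129S1/SvImJ rosiglitazone replicates 1, 2 and 4. After scaling by median ratio size factors 55 genes were called, 25 more positive and 30 more negative, and without the trend and robust settings 7 were. Of the 48 genes, 15 were called in all 16 fits that lack 1 library, among them Sorl1, Tlcd2, Tuba1a, Mid1ip1, Tuba1b, Tubb4b, Atp10a, Adap1, Tsc22d1, Maged1, Rad51l3, Pde1b, Ivns1abp and BC090627. Only 2, Tuba1b and Tubb4b, were called in all of these and in every other alternative fit.

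**Figure D2:**
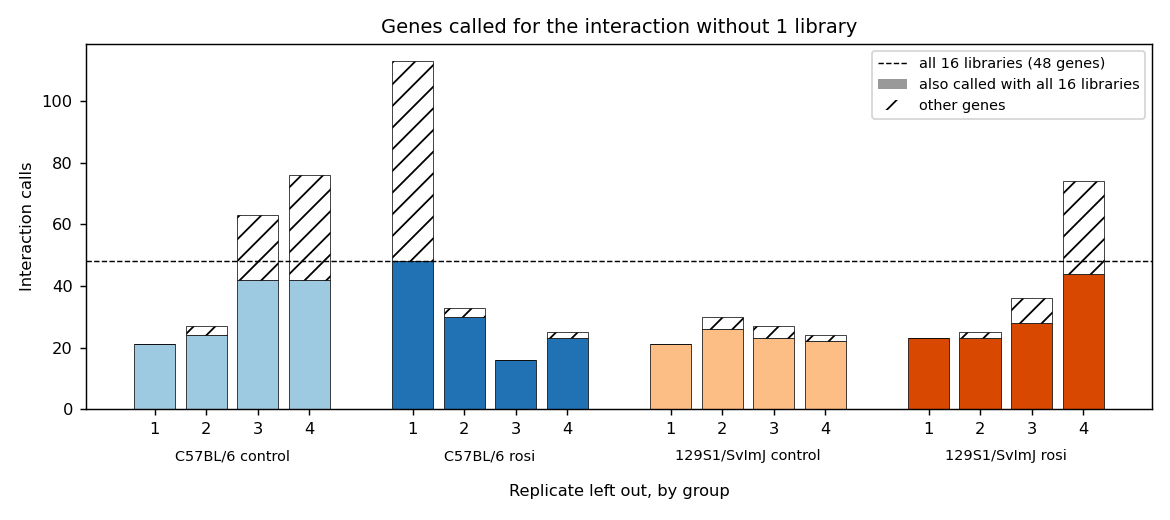
Number of genes called for the interaction (y axis) when the replicate named on the x axis was left out, by group; filled bars are genes that were also called with all 16 libraries and hatched bars are other genes. The bars run from 16 genes without C57BL/6 rosiglitazone replicate 3 to 113 without C57BL/6 rosiglitazone replicate 1, against 48 with all libraries (dashed line).

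Genes of cholesterol synthesis and uptake had the higher median response in C57BL/6. Of the 22 genes in this list 9 rose in C57BL/6 (1.53% of all genes rose and 0.905% fell there) and none fell. In 129S1/SvImJ none rose and 2 fell (2.56% of all genes fell there). The median response of the list was 0.63 in C57BL/6 and -0.05 in 129S1/SvImJ, against 0.00 for all genes in each strain. For the interaction 4 members were called, the enzymes Nsdhl, Lss and Sc5d among them, all more negative in 129S1/SvImJ, and the list median was -0.75 against -0.02 for all genes. At an unadjusted p under 0.05, 13 of the 22 were more negative in 129S1/SvImJ and none more positive, beside 5.85% of all genes, and 7.73% of genes with a mean of at least 10 in some group, on the negative side.

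Promoter sequences are shown for these 3 enzymes, whose interactions share their sign, by which they were chosen. Of the 22 genes in the list, 15 were matched in the RefSeq promoter table used here (GRCm38.p6). This is a reference build, and promoter sequences were not compared between the strains. The last 100 bases before the start of transcription are printed 5′ to 3′ on the gene's strand, with capitals marking ATTGG, the reverse complement of the CCAAT box.
Nsdhl: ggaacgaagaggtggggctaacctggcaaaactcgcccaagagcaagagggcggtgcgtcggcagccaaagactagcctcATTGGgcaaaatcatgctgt
Sc5d: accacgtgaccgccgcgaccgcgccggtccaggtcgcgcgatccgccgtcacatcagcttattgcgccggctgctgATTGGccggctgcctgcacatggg
Lss: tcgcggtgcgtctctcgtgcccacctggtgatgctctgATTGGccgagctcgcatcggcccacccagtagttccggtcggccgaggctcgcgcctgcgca
The windows lie at chrX:72918421-72918520 on the plus strand for Nsdhl, chr9:42264301-42264400 on the minus strand for Sc5d and chr10:76531505-76531604 on the plus strand for Lss. ATTGG or CCAAT (both strands searched) was found in 13 of 18 windows of the list, which belong to 13 of its 15 genes, and in 18.9% of all 32851 windows of this length. A match is a description of the letters and not evidence of binding.

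Nsdhl, which removes a methyl group of the sterol precursor, was at 96, 70, 113 and 96 in C57BL/6 controls and at 171, 180, 266 and 262 with rosiglitazone. In 129S1/SvImJ it was at 258, 226, 402 and 205 in controls and at 200, 199, 148 and 227 with rosiglitazone, and these groups overlapped. Its interaction of -1.67 ± 0.29 (adjusted p = 0.0157) lost the call only without C57BL/6 rosiglitazone replicate 3 among the fits lacking 1 library, at an adjusted p of 0.0501. Lss, the cyclase that makes lanosterol, was at 121, 107, 148 and 167 in C57BL/6 controls and at 313, 325, 424 and 417 with rosiglitazone. The 129S1/SvImJ values were 246, 192, 335 and 227 in controls and at 297, 326, 246 and 365 with rosiglitazone. All C57BL/6 drug libraries exceeded all C57BL/6 controls, while the 129S1/SvImJ groups overlapped. The interaction for Lss, -1.13 ± 0.24 (adjusted p = 0.0494), lost the call in 11 of the 16 fits without 1 library, with an adjusted p of up to 0.142.

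Sc5d, a late desaturase of the pathway, was at 546, 386, 522 and 490 in C57BL/6 controls and at 523, 578, 863 and 850 with rosiglitazone, and these groups overlapped. The 129S1/SvImJ values were 594, 582, 561 and 626 in controls and at 440, 444, 368 and 445 with rosiglitazone, with no overlap. Its interaction was -0.99 ± 0.20 (adjusted p = 0.0404), and the call was lost in 11 of the 16 fits, with an adjusted p of up to 0.121. Not called were Sqle, the squalene epoxidase (interaction -1.36 ± 0.29, adjusted p = 0.0599), Cyp51, the lanosterol demethylase (-0.93 ± 0.23, adjusted p = 0.114), and the mevalonate pathway enzymes Mvd (-1.21 ± 0.31, adjusted p = 0.117) and Pmvk (-0.96 ± 0.25, adjusted p = 0.131). Of these 4, Cyp51, Mvd and Pmvk rose in C57BL/6, by 1.02, 0.87 and 0.87. Srebf2, the transcription factor that drives the pathway, had an interaction of -0.51 ± 0.18 (adjusted p = 0.274). Insig1, a sterol-regulated anchor protein of that factor, rose by 1.69 ± 0.24 in C57BL/6 (adjusted p = 0.00104) and had a response of 0.44 ± 0.24 in 129S1/SvImJ, with an interaction of -1.25 ± 0.33 that was not called (adjusted p = 0.165).

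**Figure D3:**
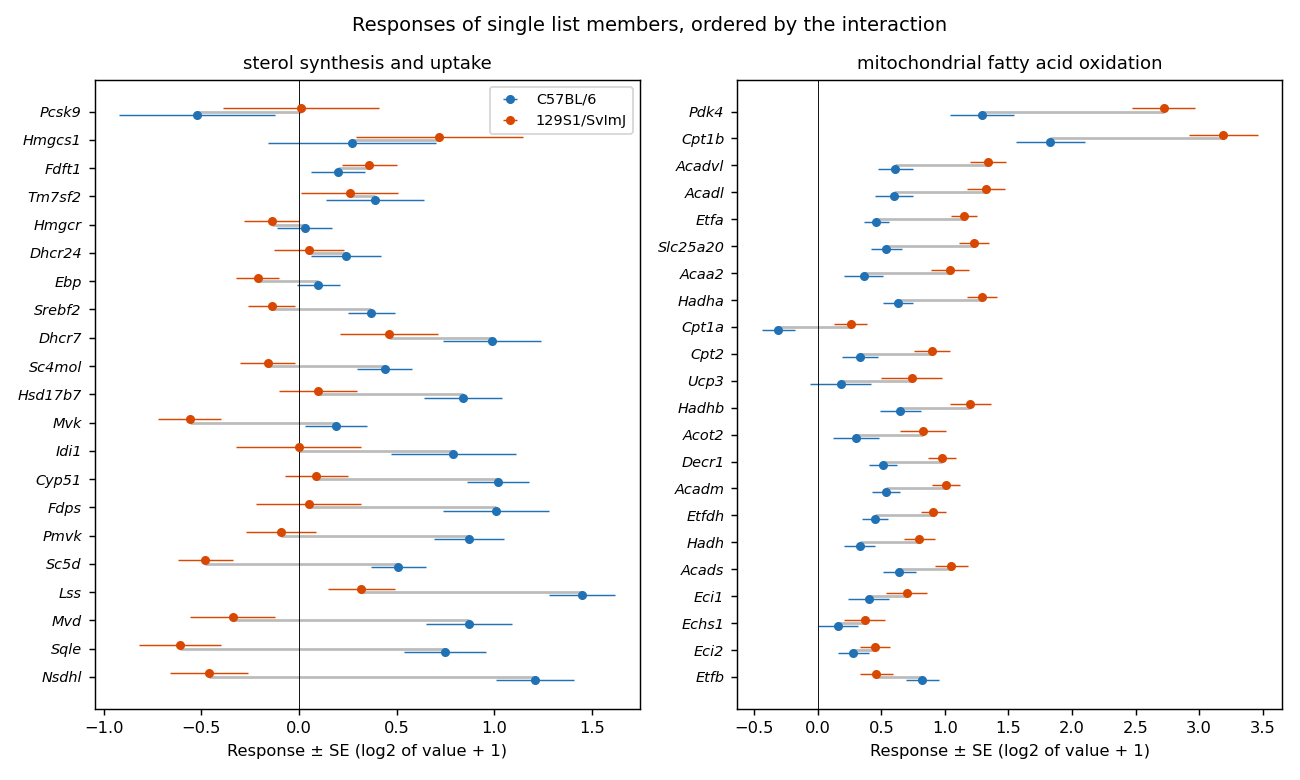
Response to rosiglitazone (x axis, log2 of value + 1, with SE bars) of members of the sterol list (left, 21 of 22 drawn) and the mitochondrial fatty acid oxidation list (right, all 22), in C57BL/6 (blue) and 129S1/SvImJ (orange). In the sterol list the blue points mostly lie to the right of the orange ones, with list medians of 0.63 and -0.05; in the oxidation list the order is the other way round except for Etfb, with medians of 0.48 and 1.00.

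Fatty acid synthesis genes also had the higher median response in C57BL/6. The list of 19 had a median response of 0.83 in C57BL/6 and -0.52 in 129S1/SvImJ. In C57BL/6 4 members rose (1.53% of all genes rose there) and none fell. In 129S1/SvImJ 1 rose and 3 fell, beside 2.95% and 2.56% of all genes. None was called for the interaction. At an unadjusted p under 0.05, 11 were more negative in 129S1/SvImJ and 1 more positive. Of all genes, 5.85% were on the negative and 4.07% on the positive side. Among genes with a mean of at least 10 in some group these shares were 7.73% and 5.94%. The interaction median of the list was -0.95.

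Scd2, a desaturase, was at 1093, 2378, 3153 and 2132 in C57BL/6 controls and at 2942, 4885, 5685 and 4959 with rosiglitazone. In 129S1/SvImJ controls it was at 6303, 5410, 8225 and 5818, and with rosiglitazone at 2239, 3060, 1691 and 4885. The 2 groups overlapped in C57BL/6, where control replicate 3 exceeded drug replicate 1, and not in 129S1/SvImJ. Its interaction was -2.35 ± 0.50 (adjusted p = 0.0971). Elovl6, an elongase, fell by 2.38 in 129S1/SvImJ (adjusted p = 0.00258) from 395, 275, 749 and 397 to 65, 98, 47 and 139, with an interaction of -2.52 ± 0.57 (adjusted p = 0.111). Thrsp, a lipogenic regulator also called Spot 14, fell by 1.44 there (adjusted p = 0.00386), with an interaction of -1.68 ± 0.37 (adjusted p = 0.103).
The enzymes of the main pathway varied between libraries of a group. Fasn, the fatty acid synthase, was at 8131 in C57BL/6 control replicate 1 and at 34653, 22134 and 37581 in the other controls, and Acly, the citrate lyase, at 906 there and at 2596, 2344 and 4832. Both genes were lowest in that library. Their interactions were -1.78 ± 0.59 (adjusted p = 0.292) and -2.41 ± 0.63 (adjusted p = 0.167). Acaca, the carboxylase, had an interaction of -1.57 ± 0.49 (adjusted p = 0.265) and Acss2, the acetyl-CoA synthetase, one of -2.29 ± 0.58 (adjusted p = 0.154). The member on the positive side was Elovl3, an elongase of brown and cold-exposed fat, at 2, 4, 5 and 3 in C57BL/6 controls and 14, 46, 41 and 23 with rosiglitazone, and at 5, 1, 1 and 1 in 129S1/SvImJ controls and 42, 60, 140 and 79 with rosiglitazone. It rose in both strains, and its interaction of 2.07 ± 0.60 was not called (adjusted p = 0.174).

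Mid1ip1, a relative of Thrsp that activates acetyl-CoA carboxylase, was called in all 16 fits without 1 library. It was at 107, 107, 154 and 108 in C57BL/6 controls and 119, 169, 259 and 208 with rosiglitazone, and at 312, 261, 267 and 306 in 129S1/SvImJ controls and 144, 135, 111 and 167 with rosiglitazone. Every 129S1/SvImJ drug library lay below every 129S1/SvImJ control, while the C57BL/6 groups overlapped. The interaction was -1.67 ± 0.26 (adjusted p = 0.00558). Tecr, the last enzyme of very long chain fatty acid elongation, rose by 0.66 in C57BL/6 (adjusted p = 0.00164), with a response of -0.15 in 129S1/SvImJ. Its interaction was -0.81 ± 0.16 (adjusted p = 0.0375), and the call was lost in 9 of the 16 fits, with an adjusted p of up to 0.105.

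Of 17 genes of glycerol 3-phosphate and triglyceride synthesis, 7 rose in C57BL/6, beside 1.53% of all genes. In 129S1/SvImJ 2 rose and 2 fell, beside 2.95% and 2.56%. For the interaction 5 were more negative and 2 more positive at an unadjusted p under 0.05, beside 5.85% and 4.07% of all genes. The interaction median was -0.13, and 1 member was called. The called gene is Gpd1, which makes glycerol 3-phosphate, the backbone of triglyceride. It was at 3853, 4519, 5081 and 5081 in C57BL/6 controls and at 9191, 12430, 12430 and 12430 with rosiglitazone, against 8426, 7258, 9909 and 8635 in 129S1/SvImJ controls and 10236, 11318, 9909 and 12430 with rosiglitazone. All C57BL/6 drug libraries exceeded the controls, and the 129S1/SvImJ groups touched at 9909. The response was 1.32 ± 0.12 in C57BL/6 (adjusted p = 2.19e-06) and 0.36 ± 0.12 in 129S1/SvImJ (adjusted p = 0.0835). Among the fits lacking 1 library, the interaction of -0.96 ± 0.17 (adjusted p = 0.0157) lost the call only without C57BL/6 rosiglitazone replicate 3 (adjusted p = 0.064). The call was also lost after renewed quantile normalization, on the square root scale, without the trend and robust settings and with a mesothelial covariate.
Agpat2, an acyltransferase of the pathway, rose by 0.76 in C57BL/6 (adjusted p = 0.00119), with an interaction of -0.61 ± 0.17 (adjusted p = 0.167). Dgat2, which adds the last fatty acid, fell by 0.78 in 129S1/SvImJ (adjusted p = 0.000654), and Mogat2, a monoacylglycerol acyltransferase, by 2.20 there (adjusted p = 2.48e-05). Their interactions were -0.76 ± 0.18 (adjusted p = 0.103) and -1.45 ± 0.39 (adjusted p = 0.128).

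Ucp1 had the largest interaction of all called genes. It stood near the floor in all 8 C57BL/6 libraries, at 4, 4, 4 and 3 in controls and 4, 5, 3 and 4 with rosiglitazone. In 129S1/SvImJ it was at 4, 14, 59 and 9 in controls and at 241, 481, 245 and 680 with rosiglitazone. No 129S1/SvImJ drug library overlapped a control, and control replicate 3 was the highest control. The response was 4.68 ± 0.53 in 129S1/SvImJ (adjusted p = 3.3e-05) and 0.07 ± 0.53 in C57BL/6, which at these values is a difference between numbers close to the floor. The interaction was 4.62 ± 0.75 (adjusted p = 0.0157). It lost the call in 3 of the 16 fits, without C57BL/6 control replicate 1 and without C57BL/6 rosiglitazone replicates 3 and 4, with an adjusted p of up to 0.063.

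More genes of thermogenic fat rose in 129S1/SvImJ than in C57BL/6, which also held over all genes. Of the 26 in the list, 6 rose in C57BL/6 (1.53% of all genes rose there) and 12 in 129S1/SvImJ (2.95%), and none fell. Ucp1 was the only member called for the interaction, and 8 were more positive at an unadjusted p under 0.05, beside 4.07% of all genes. The interactions ran from -0.83 to 4.62, 18 above 0 and 8 below. Cidea, a lipid droplet protein used as a marker of brown and beige fat, was at 22, 16, 11 and 15 in C57BL/6 controls and at 64, 46, 52 and 66 with rosiglitazone. The 129S1/SvImJ controls were at 95, 116, 126 and 111 and the drug libraries at 602, 808, 333 and 596. Within each strain the drug libraries lay above the controls. The responses were 1.79 ± 0.22 (adjusted p = 7.74e-05) and 2.31 ± 0.22 (adjusted p = 8.82e-07), and the interaction was 0.52 ± 0.31 (adjusted p = 0.624).
Cox8b, a cytochrome oxidase subunit of brown fat and muscle, rose by 2.46 ± 0.35 in 129S1/SvImJ (adjusted p = 0.000491), with a response of 0.80 ± 0.35 in C57BL/6 that was not called (adjusted p = 0.315) and an interaction of 1.65 ± 0.50 (adjusted p = 0.227). Cox7a1, another such subunit, rose by 1.42 ± 0.34 in 129S1/SvImJ (adjusted p = 0.0145) and had a response of 0.05 ± 0.34 in C57BL/6, with an interaction of 1.37 ± 0.48 (adjusted p = 0.296). Ppargc1a, a coactivator of mitochondrial genes, was called in neither strain and had an interaction of 0.50 ± 0.37 (adjusted p = 0.708). The brown adipocyte marker list of 9 genes, which includes Ucp1, summed to 536 to 710 in C57BL/6 controls, 991 to 1626 in C57BL/6 with rosiglitazone, 726 to 1508 in 129S1/SvImJ controls and 2072 to 3400 in 129S1/SvImJ with rosiglitazone. Of its members 5 had an interaction above 0 and 4 below, from -0.69 to 4.62. With an unadjusted p under 0.05 there were 4 on the positive side and 1 on the negative side. The part of this list in the Ucp1 difference was not tested.

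Genes of mitochondrial fatty acid oxidation had the higher median response in 129S1/SvImJ, while those of peroxisomal oxidation had nearly equal medians. Of the 22 mitochondrial fatty acid oxidation genes 13 rose in C57BL/6 and 19 in 129S1/SvImJ, and none fell in either. Of all genes, 1.53% rose in C57BL/6 and 2.95% in 129S1/SvImJ. The median response of the list was 0.48 and 1.00. No member was called for the interaction, while 16 were more positive in 129S1/SvImJ at an unadjusted p under 0.05 and none more negative. On the positive side were 4.07% of all genes, and 5.94% of genes with a mean of at least 10 in some group. The median interaction of the list was 0.56, and 21 of the 22 lay above 0.
Etfa, a subunit of the flavoprotein that hands electrons of oxidation to the respiratory chain, was at 384, 369, 401 and 417 in C57BL/6 controls and 653, 443, 526 and 558 with rosiglitazone, and at 350, 306, 298 and 301 in 129S1/SvImJ controls and 675, 676, 664 and 768 with rosiglitazone. The drug libraries lay above the controls in both strains. Its interaction of 0.69 ± 0.15 was not called (adjusted p = 0.0523). Cpt1b, a carnitine transferase of muscle and brown fat, rose by 1.83 ± 0.27 in C57BL/6 and by 3.19 ± 0.27 in 129S1/SvImJ, with an interaction of 1.36 ± 0.39 (adjusted p = 0.179). Pdk4, the kinase that turns off pyruvate dehydrogenase, rose by 1.29 ± 0.25 and 2.72 ± 0.25, with an interaction of 1.43 ± 0.35 (adjusted p = 0.125). Hadha, a subunit of the trifunctional protein, Slc25a20, the acylcarnitine carrier, and the acyl-CoA dehydrogenases Acadvl and Acadl rose by 0.54 to 0.63 in C57BL/6 and by 1.23 to 1.34 in 129S1/SvImJ. Their interactions were 0.66 to 0.73, with adjusted p of 0.115 to 0.196.

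Acad11, an acyl-CoA dehydrogenase of long chain fatty acids, was called for the interaction. It was at 1502, 1541, 1362 and 1414 in C57BL/6 controls and 2308, 1340, 1464 and 1444 with rosiglitazone, where 3 of the 4 drug libraries lay within or below the range of the controls. Values in 129S1/SvImJ were 746, 864, 902 and 890 in controls and 1599, 1780, 1976 and 1673 with rosiglitazone. Its interaction of 0.91 ± 0.18 (adjusted p = 0.0384) lost the call in 12 of the 16 fits, with an adjusted p of up to 0.12. Of the 20 peroxisomal oxidation genes 7 rose in C57BL/6 (1.53% of all genes) and 8 in 129S1/SvImJ (2.95%). None fell, and none was called for the interaction. Their median response was 0.34 in C57BL/6 and 0.33 in 129S1/SvImJ. The interactions ran from -0.81 to 1.29 with a median of 0.09, 13 above 0 and 7 below. At an unadjusted p under 0.05, 4 were more positive and 1 more negative, beside 4.07% and 5.85% of all genes. The highest was that of Acaa1b, a peroxisomal thiolase, which rose by 1.22 ± 0.22 and 2.51 ± 0.22 and had an interaction of 1.29 ± 0.30 (adjusted p = 0.11).

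Among textbook targets of PPARG agonists more rose than fell in both strains. Of 26 in the list 11 rose and 1 fell in C57BL/6, beside 1.53% and 0.905% of all genes. In 129S1/SvImJ 16 rose and 2 fell, beside 2.95% and 2.56%. Ucp1, which is in this list too, was the only member called for the interaction. The interaction median was 0.47, with 12 members more positive and 2 more negative at an unadjusted p under 0.05. These shares were 4.07% and 5.85% over all genes, and 5.94% and 7.73% over genes with a mean of at least 10 in some group. Pparg itself was at 868, 926, 853 and 1001 in C57BL/6 controls and 831, 871, 1050 and 978 with rosiglitazone. In 129S1/SvImJ it fell from 1043, 1166, 1233 and 1220 to 755, 858, 969 and 756, with no overlap. The response was 0.03 ± 0.10 in C57BL/6 and -0.49 ± 0.10 in 129S1/SvImJ (adjusted p = 0.00407), and the interaction of -0.51 ± 0.14 was not called (adjusted p = 0.146). Ppara, a related receptor that drives oxidation genes, rose by 1.46 ± 0.19 in 129S1/SvImJ (adjusted p = 3.92e-05) with a response of 0.28 ± 0.19 in C57BL/6, and its interaction was 1.17 ± 0.26 (adjusted p = 0.0763).

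Angptl4, a secreted inhibitor of lipoprotein lipase, was at 3319, 2682, 2911 and 2942 in C57BL/6 controls and 3319, 2552, 2702 and 3060 with rosiglitazone. In 129S1/SvImJ it was at 1961, 2874, 1971 and 1659 in controls and 3909, 4230, 3054 and 3953 with rosiglitazone. The C57BL/6 groups overlapped almost fully and the 129S1/SvImJ groups did not. Its interaction was 0.89 ± 0.19 (adjusted p = 0.0599). Aqp7, the glycerol channel of adipocytes, rose by 0.43 ± 0.10 and 1.08 ± 0.10, with an interaction of 0.65 ± 0.14 (adjusted p = 0.0514). Slc27a1, a fatty acid transporter, rose by 0.97 ± 0.23 and 2.20 ± 0.23 (interaction 1.24 ± 0.32, adjusted p = 0.146), and Plin5, a droplet coat protein of oxidative tissues, by 0.87 ± 0.23 and 2.13 ± 0.23 (interaction 1.26 ± 0.32, adjusted p = 0.121).
Fabp4, the fatty acid binding protein of adipocytes, rose by 0.86 ± 0.12 in 129S1/SvImJ (adjusted p = 6.39e-05) and had a response of 0.36 ± 0.12 in C57BL/6, with an interaction of 0.50 ± 0.16 (adjusted p = 0.252). Cidec, a droplet protein, rose in each strain, by 0.46 ± 0.09 and 0.55 ± 0.09, and its interaction was 0.09 ± 0.12 (adjusted p = 0.863). The interactions of Cd36, a fatty acid receptor (0.20 ± 0.11, adjusted p = 0.59), and Pck1, the enzyme that starts glyceroneogenesis (0.80 ± 0.26, adjusted p = 0.273), were not called.

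**Figure D4:**
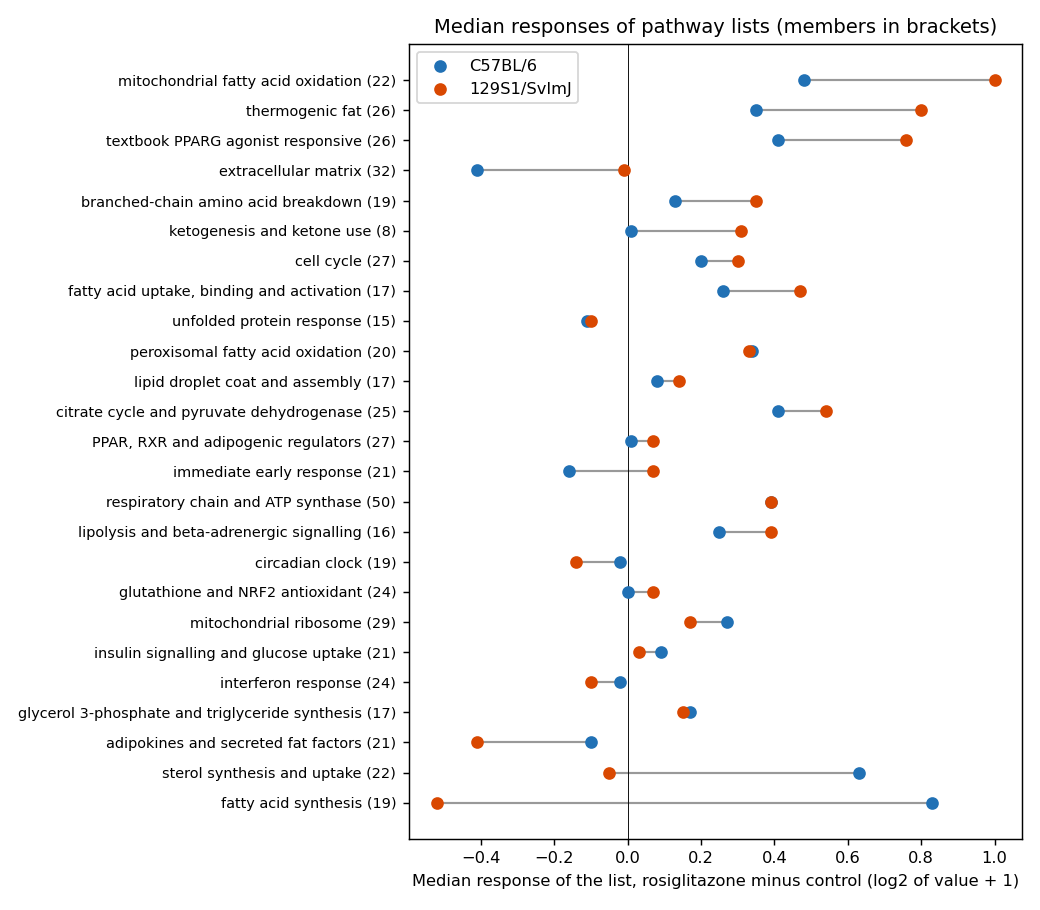
Median response to rosiglitazone (x axis, log2 of value + 1) of each pathway list in C57BL/6 (blue) and 129S1/SvImJ (orange), ordered by the median interaction, with the number of members in brackets. Mitochondrial fatty acid oxidation has the larger median in 129S1/SvImJ (1.00 against 0.48) and fatty acid synthesis in C57BL/6 (0.83 against -0.52), while the respiratory chain has 0.39 in both.

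The respiratory chain list shows the strains side by side where the interaction was near 0. Of its 50 genes 13 rose in C57BL/6 (1.53% of all genes rose there) and 18 in 129S1/SvImJ (2.95%). The median response of the list was 0.39 in each. The median interaction was 0.02, no member was called, and 1 was more positive at an unadjusted p under 0.05. Cox4i1, a core subunit of cytochrome oxidase, rose by 0.44 ± 0.11 in C57BL/6 and 0.69 ± 0.11 in 129S1/SvImJ, and its interaction was 0.25 ± 0.15 (adjusted p = 0.628). Of 25 genes of the citrate cycle and pyruvate dehydrogenase 9 rose in C57BL/6 and 16 in 129S1/SvImJ. Their median interaction was 0.07, the highest was 1.43, and none was called. At an unadjusted p under 0.05, 5 were more positive, beside 4.07% of all genes, and none more negative. Nnt, a mitochondrial transhydrogenase, fell in both strains, from 117, 111, 105 and 142 to 82, 84, 92 and 85 in C57BL/6 and from 221, 237, 229 and 275 to 113, 105, 102 and 105 in 129S1/SvImJ. Its interaction was -0.71 ± 0.16 (adjusted p = 0.0633).

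Among 21 adipokines and secreted factors of fat none was called for the interaction. Retn, which encodes resistin, fell by 1.47 ± 0.24 in 129S1/SvImJ (adjusted p = 0.00172), from 4253, 3953, 4854 and 3816 to 1570, 2000, 1030 and 1637. In C57BL/6 it was at 1750, 2566, 2382 and 3732 in controls and 3264, 1603, 2487 and 2433 with rosiglitazone, which overlap. The interaction was -1.39 ± 0.35 (adjusted p = 0.128). Adipoq, which encodes adiponectin, had responses of 0.07 ± 0.12 and 0.04 ± 0.12 and an interaction of -0.03 ± 0.16 whose sign changed with the library left out. Lep, which encodes leptin, had responses of -0.01 ± 0.29 and -0.16 ± 0.29. None of 21 genes of insulin signalling and glucose uptake was called for the interaction. Gys2, a glycogen synthase, rose by 2.12 ± 0.39 in C57BL/6 (adjusted p = 0.00995) with a response of 0.60 ± 0.39 in 129S1/SvImJ, and its interaction was -1.51 ± 0.55 (adjusted p = 0.356).

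**Figure D5:**
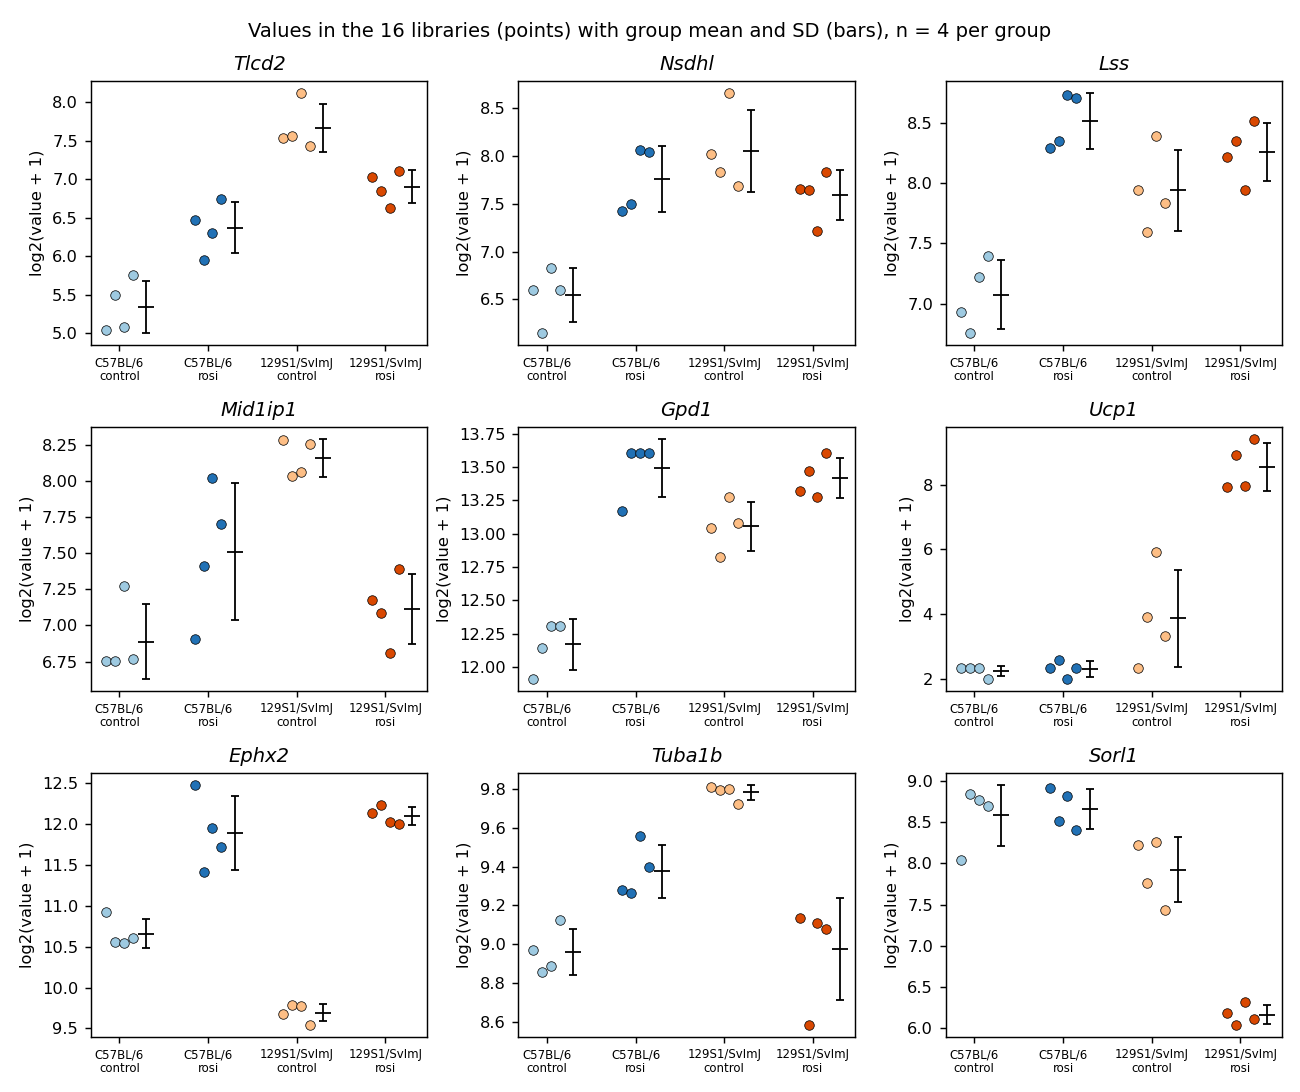
Values of 9 genes called for the interaction in each of the 16 libraries (points, log2(value + 1) on the y axis, groups on the x axis), with the mean and SD of each group of 4 beside them. Tlcd2 and Tuba1b rise in C57BL/6 and fall in 129S1/SvImJ, Nsdhl, Lss and Gpd1 rise in C57BL/6 with overlapping 129S1/SvImJ groups, and Ucp1 stays near the floor in all 8 C57BL/6 libraries.

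Ephx2, Niacr1, Mgll and Apoc1 were among the 17 genes called in the positive direction. Ephx2, the soluble epoxide hydrolase, was at 1941, 1509, 1491 and 1557 in C57BL/6 controls and 5728, 2729, 3953 and 3361 with rosiglitazone. Values in 129S1/SvImJ were 819, 879, 873 and 747 in controls and 4494, 4811, 4187 and 4102 with rosiglitazone. It rose in both strains without overlap, by 1.23 ± 0.15 and 2.41 ± 0.15, and the strains' drug libraries covered a common range. The interaction of 1.17 ± 0.22 (adjusted p = 0.0243) lost the call in 8 of the 16 fits, with an adjusted p of up to 0.0798. Niacr1, the nicotinic acid receptor that restrains lipolysis, was at 51, 60, 43 and 82 in C57BL/6 controls and 94, 34, 62 and 58 with rosiglitazone, and at 30, 32, 37 and 22 in 129S1/SvImJ controls and 92, 102, 152 and 86 with rosiglitazone. It rose in 129S1/SvImJ, and the C57BL/6 groups overlapped. Its interaction of 1.77 ± 0.36 (adjusted p = 0.0437) lost the call in 13 of the 16 fits, with an adjusted p of up to 0.138. Of 16 genes of lipolysis and beta-adrenergic signalling 4 rose in C57BL/6 (1.53% of all genes) and 7 in 129S1/SvImJ (2.95%), and none fell. The median interaction of this list was -0.02, with 7 above 0 and 9 below, and Mgll was its only called member. Mgll, the monoacylglycerol lipase, rose by 0.29 ± 0.08 and 0.81 ± 0.08, and its interaction of 0.51 ± 0.11 (adjusted p = 0.0495) lost the call in 14 of the 16 fits, with an adjusted p of up to 0.138. Apoc1, an apolipoprotein, rose by 0.90 ± 0.15 in 129S1/SvImJ with a response of -0.17 ± 0.15 in C57BL/6, and its interaction of 1.07 ± 0.22 (adjusted p = 0.0422) lost the call in 13 of the 16 fits, with an adjusted p of up to 0.12.

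Tubulins, the subunits of microtubules, gave 3 called genes, and Tuba1b and Tubb4b had the smallest adjusted p of all 48. Tuba1b, an alpha tubulin, was at 500, 463, 473 and 558 in C57BL/6 controls and 621, 615, 753 and 674 with rosiglitazone, and at 899, 887, 892 and 845 in 129S1/SvImJ controls and 562, 383, 551 and 539 with rosiglitazone. Tubb4b, a beta tubulin, was at 368, 329, 359 and 361 in C57BL/6 controls and 378, 429, 531 and 532 with rosiglitazone, and at 698, 775, 796 and 785 in 129S1/SvImJ controls and 459, 425, 435 and 477 with rosiglitazone. In both genes the drug libraries lay above the controls in C57BL/6 and below them in 129S1/SvImJ. The interactions were -1.22 ± 0.16 and -1.15 ± 0.14, each with an adjusted p of 0.00138, and at most 0.00777 without any 1 library. Tuba1a, another alpha tubulin, fell from 2361, 2180, 2580 and 2075 to 743, 455, 676 and 618 in 129S1/SvImJ, with overlapping C57BL/6 groups and an interaction of -1.70 ± 0.26 (adjusted p = 0.0102). Tubulin genes have near-identical copies, so reads may be split between them and the levels of single genes are uncertain.

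Sorl1, Cmklr1, Ptges, Orm3, Mrap and Cav1 were among the 31 genes with the more negative response in 129S1/SvImJ. Sorl1, an intracellular sorting receptor, was at 262, 458, 435 and 414 in C57BL/6 controls and 481, 364, 451 and 337 with rosiglitazone. In 129S1/SvImJ it fell from 299, 217, 306 and 172 to 72, 65, 79 and 68. The C57BL/6 groups overlapped and the 129S1/SvImJ groups did not, and the interaction was -1.83 ± 0.26 (adjusted p = 0.00543). Cmklr1, the chemerin receptor, fell by 1.55 ± 0.14 in 129S1/SvImJ with a response of -0.52 ± 0.14 in C57BL/6, and its interaction of -1.03 ± 0.20 (adjusted p = 0.0384) lost the call in 11 of the 16 fits, with an adjusted p of up to 0.12. Ptges, a prostaglandin E synthase, fell from 648, 389, 533 and 590 to 209, 195, 179 and 208 in 129S1/SvImJ and was at 166, 267, 258 and 282 against 233, 249, 453 and 444 in C57BL/6. Among the fits lacking 1 library, its interaction of -1.88 ± 0.31 (adjusted p = 0.0166) lost the call only without 129S1/SvImJ rosiglitazone replicate 2 (adjusted p = 0.0556). Orm3, an acute phase protein, fell from 142, 171, 213 and 190 to 15, 22, 9 and 22 in 129S1/SvImJ and from 62, 91, 91 and 110 to 56, 31, 35 and 20 in C57BL/6. It fell in both strains, the interaction of -2.03 ± 0.39 (adjusted p = 0.0384) lost the call in 9 of the 16 fits, with an adjusted p of up to 0.12, and related Orm genes may share its reads. Mrap, the accessory protein of the corticotropin receptor, rose by 0.79 ± 0.10 in C57BL/6 with a response of -0.03 ± 0.10 in 129S1/SvImJ. Among the fits lacking 1 library, its interaction of -0.83 ± 0.14 (adjusted p = 0.0135) lost the call only without C57BL/6 rosiglitazone replicate 3 (adjusted p = 0.0501). Cav1, the coat protein of caveolae, fell by 0.68 ± 0.10 in 129S1/SvImJ, and its interaction of -0.65 ± 0.14 (adjusted p = 0.0484) lost the call in 13 of the 16 fits, with an adjusted p of up to 0.142.

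Glutathione and antioxidant genes moved in both directions. In C57BL/6 1 of the 24 rose and 2 fell, beside 1.53% and 0.905% of all genes. In 129S1/SvImJ 2 rose and 4 fell, beside 2.95% and 2.56%. For the interaction, 6 were more negative and 1 more positive at an unadjusted p under 0.05, beside 5.85% and 4.07% of all genes. Of these 24, Gstm2 was the only gene called for the interaction. Gstm2, a glutathione transferase, fell from 306, 333, 300 and 332 to 147, 116, 109 and 141 in 129S1/SvImJ and was at 196, 145, 139 and 183 against 131, 111, 133 and 145 in C57BL/6, which overlap. Its interaction was -0.97 ± 0.18 (adjusted p = 0.0243), and 7 of the 16 fits lost the call, with an adjusted p of up to 0.0805. Gstm1 fell in both strains, by 0.60 and 1.32 (interaction -0.73 ± 0.20, adjusted p = 0.146), and Gsta3 fell by 1.49 in 129S1/SvImJ (interaction -1.25 ± 0.28, adjusted p = 0.093). Gsto1, a transferase of another class that is outside the list, rose from 82, 95, 87 and 97 to 230, 206, 222 and 222 in 129S1/SvImJ and was at 296, 182, 208 and 137 against 284, 201, 191 and 209 in C57BL/6. With rosiglitazone the 129S1/SvImJ libraries lay within the range of the C57BL/6 ones. The interaction of 1.14 ± 0.24 (adjusted p = 0.048) lost the call in 14 of the 16 fits, with an adjusted p of up to 0.142. Glutathione transferases of a class are close copies, so their reads may be split.

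Tlcd2, Atp10a, Golga7b and Tmem206 also rose in C57BL/6, and Slc6a8, Fzd5 and Fbxo32 fell there. Tlcd2, a membrane protein with a TLC domain, was at 32, 44, 33 and 53 in C57BL/6 controls and 88, 61, 78 and 106 with rosiglitazone, and at 184, 188, 277 and 171 in 129S1/SvImJ controls and 130, 114, 98 and 137 with rosiglitazone. Both strains were without overlap, in opposite directions, and the interaction was -1.78 ± 0.27 (adjusted p = 0.00558). Atp10a, a phospholipid flippase, rose by 0.57 ± 0.13 in C57BL/6 and fell by 0.55 in 129S1/SvImJ, with an interaction of -1.13 ± 0.19 (adjusted p = 0.0115). Slc6a8, the creatine transporter, fell from 174, 140, 121 and 132 to 64, 100, 60 and 71 in C57BL/6 and was at 78, 69, 68 and 62 against 77, 72, 123 and 82 in 129S1/SvImJ, where the groups overlapped. Its interaction of 1.27 ± 0.25 (adjusted p = 0.0376) lost the call in 10 of the 16 fits, with an adjusted p of up to 0.12. Fzd5, a Wnt receptor, fell by 0.64 in C57BL/6 and Fbxo32, a ubiquitin ligase subunit known from muscle wasting, by 0.59, with interactions of 0.94 ± 0.19 and 0.72 ± 0.14, each with an adjusted p of 0.0384, lost in 11 and 12 of the 16 fits with adjusted p of up to 0.12 and 0.1. Golga7b rose by 1.09 in C57BL/6 (interaction -1.37 ± 0.27, adjusted p = 0.0384) and Tmem206, a chloride channel, by 0.50 (interaction -0.67 ± 0.13, adjusted p = 0.0384), and each lost the call in 12 of the 16 fits.

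The remaining called genes were called in 129S1/SvImJ and, except BC090627, not in C57BL/6. Stable without any 1 library were Rad51l3, a DNA repair gene (interaction 1.10 ± 0.17, adjusted p = 0.00558), Ivns1abp (1.13 ± 0.17, adjusted p = 0.00558), Pde1b, a phosphodiesterase (1.12 ± 0.18, adjusted p = 0.0102), and BC090627 (1.14 ± 0.19, adjusted p = 0.0115), on the positive side. On the negative side these were Adap1 (-1.09 ± 0.17, adjusted p = 0.00558), Tsc22d1 (-0.81 ± 0.14, adjusted p = 0.011) and Maged1 (-0.72 ± 0.12, adjusted p = 0.0102). Rad51l3, for example, was at 230, 264, 225 and 203 in 129S1/SvImJ controls and 407, 435, 486 and 375 with rosiglitazone, and at 295, 266, 245 and 226 against 264, 187, 223 and 217 in C57BL/6, where the groups overlapped. Adap1 was at 361, 320, 350 and 417 against 166, 161, 169 and 201 in 129S1/SvImJ, and at 208, 289, 273 and 293 against 280, 235, 297 and 275 in C57BL/6, which again overlap. Of these stable genes, only Pde1b and Maged1 kept the call without the trend and robust settings.
Less stable were Lcorl (1.42 ± 0.27), Slc20a2, a phosphate transporter (0.90 ± 0.19), and Picalm, a clathrin assembly protein (0.62 ± 0.11), on the positive side, lost in 11, 12 and 4 of the 16 fits. On the negative side were Cdkn2c, a cyclin-dependent kinase inhibitor (-1.39 ± 0.25), Olfm1 (-1.13 ± 0.22), Gbp2, an interferon-inducible GTPase (-1.12 ± 0.22), Ergic1 (-0.89 ± 0.18), Pmp22, a myelin protein (-0.87 ± 0.17), and Rab32 (-0.84 ± 0.17). These lost the call in 8, 10, 13, 13, 9 and 12 of the 16 fits. The adjusted p of these 9 genes lay between 0.0232 and 0.0437 with all libraries.

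Markers of other cells were examined beside these results. No marker list had a member called for the interaction apart from Ucp1 among the brown adipocyte markers. The 11 mesothelial markers, genes of the layer that covers visceral fat, had a median interaction of -1.56. All 11 were below 0, and 5 at an unadjusted p under 0.05, beside 5.85% of all genes. Their summed values were 498, 3606, 2617 and 985 in C57BL/6 controls and 2514, 2763, 1528 and 1888 with rosiglitazone, and 1863, 2868, 2258 and 3094 in 129S1/SvImJ controls and 1041, 1027, 849 and 2011 with rosiglitazone. C57BL/6 control replicates 1 and 4 were thus low, as were the 129S1/SvImJ drug libraries apart from replicate 4, and Msln, the marker mesothelin, followed with an interaction of -1.56 ± 0.74 (adjusted p = 0.525). With the mean of this list as a covariate, an alternative added after the data were seen, 3 genes were called, Tuba1a, Tuba1b and Tubb4b, while all 48 kept their sign. The median of the 31 negative interactions was -1.12 without and -1.14 with the covariate, that of the 17 positive ones 1.12 and 0.99, and the median SE 0.19 and 0.22.
The 18 macrophage markers summed to 5063 to 8561 in C57BL/6 controls, 3166 to 6329 with rosiglitazone, 5446 to 7827 in 129S1/SvImJ controls and 3468 to 5537 with rosiglitazone, with a median interaction of -0.08. Endothelial markers had a median interaction of 0.27 (14 of 14 above 0, 2 at an unadjusted p under 0.05, beside 4.07% of all genes). The 9 erythroid markers had a median interaction of 1.17 (9 of 9 above 0, 1 at an unadjusted p under 0.05), with a median response of -0.86 in C57BL/6 and 0.01 in 129S1/SvImJ. They summed to 3266 in C57BL/6 control replicate 3 and to 282 to 802 in the other libraries. Smooth muscle and pericyte markers had a median interaction of 0.42 (8 of 10 above 0), and progenitor and fibroblast markers one of 0.30 (12 of 14 above 0). Genes of the extracellular matrix had a median interaction of 0.30 (28 of 32 above 0, none called), with a median response of -0.41 in C57BL/6 and -0.01 in 129S1/SvImJ. Postn, the matrix protein periostin, rose by 0.86 ± 0.20 in 129S1/SvImJ (adjusted p = 0.0133), and its interaction was 1.11 ± 0.28 (adjusted p = 0.121). The part of these cell type differences in the interactions above was not tested. The covariate fit cannot decide it, as the mesothelial markers it used had a median interaction of -1.56 themselves.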

How the data were processed

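Libraries were made with a TruSeq kit from RNA that had been purified by Trizol and RNeasy, and were read on a Genome Analyzer, per the labels' protocols. The submitters' processing notes name HOMER and the genome build mm9. Counting options and normalization were not given in the sources used here. The deposited table gives a score for each of 28644 transcripts in each library, a whole number of 1 to 231290 already normalized by the authors. The 16 libraries share their maximum and nearly their total, so the values are not raw counts, their depth is unknown and no counting interval was computed.

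The transcript with the highest total was kept for each of 22869 gene symbols. log2(value + 1) was fitted in limma 3.58.1 (R 4.3.3) with a mean for each of the 4 groups and moderated variances with trend and robust settings, and p-values (two-sided) were adjusted by Benjamini-Hochberg over all genes. The fit was tested on simulated data. Tables were handled with Python 3.11.15.

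The comparison, the 25 pathway and 16 marker lists and the named genes were chosen with earlier results of these data known. By the rule, the text names the 12 largest called interactions in each direction that reach a group mean of 20, per list at most 4 members, those of smallest p, and 12 fixed genes. It gave 175 genes, more than the text holds, and the members left out were left out after their values had been seen. Of the 17 called genes outside the rule, those given in the text were named after their values were seen, as were some list members. A few genes that enter the counts are not reported here.

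Alternatives were another pseudocount (0.5 or 8), the square root scale, a filter on low values, summed transcripts, renewed quantile normalization, size factors, no trend, array weights, a replicate block, a limit on the log2 difference, fits within a strain and leaving out each library. Replicate numbers are not stated to mark shared animals or batches, and no pairing was used.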

Additional observations from a re-analysis of the deposited data

Results flagged for a closer look

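The rosiglitazone response differed between the strains, by the test of the difference itself, for the 48 genes called for the interaction, of which 46 are given here. The interaction (129S1/SvImJ response minus C57BL/6 response, log2 of value + 1) was negative for Orm3 -2.03, Ptges -1.88, Sorl1 -1.83, Tlcd2 -1.78, Tuba1a -1.70, Mid1ip1 -1.67, Nsdhl -1.67, Cdkn2c -1.39, Golga7b -1.37, Tuba1b -1.22, Tubb4b -1.15, Atp10a -1.13, Olfm1 -1.13, Lss -1.13, Gbp2 -1.12. It was also negative, and smaller, for Adap1 -1.09, Cmklr1 -1.03, Sc5d -0.99, Gstm2 -0.97, Gpd1 -0.96, Ergic1 -0.89, Pmp22 -0.87, Rab32 -0.84, Mrap -0.83, Tecr -0.81, Tsc22d1 -0.81, Maged1 -0.72, Tmem206 -0.67, Cav1 -0.65. It was positive for Ucp1 4.62, Niacr1 1.77, Lcorl 1.42, Slc6a8 1.27, Ephx2 1.17, Gsto1 1.14, BC090627 1.14, Ivns1abp 1.13, Pde1b 1.12, Rad51l3 1.10, Apoc1 1.07, Fzd5 0.94, Acad11 0.91, Slc20a2 0.90, Fbxo32 0.72, Picalm 0.62, Mgll 0.51.

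Among the genes named here, 27 of 379 groups of 4 libraries (7.12%) held a library set apart from the other 3 by Dixon's test. For values without ties chance gives about 1 in 20. The scores hold ties, and where the other 3 libraries share a score any gap is flagged, however small. This was so for Cd36, Pck1, Fabp4, Cidec, Elovl3, Gpd1 and Ucp1, so the share cannot be set against 1 in 20. In the 129S1/SvImJ rosiglitazone group the flagged library was replicate 2 for Ppara (416), Tuba1b (383), Fbxo32 (119), and replicate 3 for Sc5d (368), Cd36 (22943), Pck1 (15186), Slc27a1 (3533), and replicate 4 for Etfa (768), Fabp4 (58431), Ivns1abp (1192). In the C57BL/6 control group this was replicate 1 for Plin5 (170), Ephx2 (1941), Ptges (166), and replicate 3 for Cyp51 (156), Mid1ip1 (154), and replicate 4 for Ucp1 (3). In the C57BL/6 rosiglitazone group this was replicate 1 for Gpd1 (9191), Acad11 (2308), Lep (4854), and replicate 2 for Thrsp (4543), Fabp4 (47712), and replicate 4 for Pde1b (72). In the 129S1/SvImJ control group this was replicate 1 for Elovl3 (5), Etfa (350), and replicate 2 for Cidec (28917), and replicate 3 for Ppara (167), and replicate 4 for Apoc1 (107).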

How the results depend on the processing

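The number of genes called for the interaction (48) was 84 with array weights, 31 with summed transcripts, 30 on the square root scale, 29 after renewed quantile normalization, 7 without the trend and robust settings, 3 with the mesothelial covariate (added after seeing the data), 29 with a log2 difference over 1 also required, and 16 to 113 without 1 library. Calls in C57BL/6 (558) were 370 without the trend and robust settings, 73 when that strain was fitted alone, 106 with a log2 difference over 1 and 275 to 741 without 1 library. Calls in 129S1/SvImJ (1260) were 748 with the mesothelial covariate, 274 with a log2 difference over 1 and 789 to 1413 without 1 library. Below the reported C57BL/6 count by more than 1.5 times were the fits without C57BL/6 control replicate 2 (353) and without C57BL/6 rosiglitazone replicates 3 (327) and 4 (275), and for 129S1/SvImJ the fit without 129S1/SvImJ control replicate 4 (789). The log2 limit selects fewer genes by construction. For the other changes the cause was not tested.

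Of 2688 values of single genes under an alternative, 2141 kept their direction and their side of the threshold, 494 lost a call, 45 gained one and 8 changed sign. None of the sign changes concerned a called gene: Adipoq was at 0.01 with array weights, 0.02 after renewed quantile normalization and -0.11 to 0.06 without single libraries, Lep at -0.43 to 0.10 without single libraries (0.10 without C57BL/6 control replicate 4), and Msln at 0.01 with the mesothelial covariate. The 13 sterol genes more negative at an unadjusted p under 0.05 were 12 to 14 in all fits run, and the 16 more positive oxidation genes 12 to 17. With a replicate block 47 genes were called, 34 of them among the 48. Deviations of libraries with the same number correlated at -0.23 to 0.15, in none of 6 pairs of groups above 0.1 throughout. Of 48 best matches, 10 were to the own number. No pairing by number was seen in these values, which cannot show one confined to few genes. Depth is unknown, and the maximum that the libraries share limits what can be seen for Scd1. Other high scores are tied between libraries too, so small differences may be missed. Cd36 was at 22517 in every C57BL/6 rosiglitazone library, and Gpd1 at 12430 in C57BL/6 rosiglitazone replicates 2 to 4.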
